A study of Mus musculus with 8 samples.

Results

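The NRF2 pathway genes described here were 10 genes of the deposited kidney expression table, taken by their gene names out of 55401 genes in all. They were *Nfe2l2*, *Keap1*, *Hmox1*, *Nqo1*, *Gclc*, *Gclm*, *Gsr*, *Txn1*, *Txnrd1* and *Srxn1*, and the rule that named them uses no measured value. All 10 were among the 15150 genes that passed the filter on low values and were tested. RNA-seq of kidney tissue compared 4 diabetic mice given rFGF4, recombinant fibroblast growth factor 4, with 4 diabetic mice that were not given it (vehicle), at 1 library per mouse. The question was which renal transcripts differ after rFGF4. The sample labels give the *db*/*db* model, a leptin receptor mutation that leads to obesity and diabetes, for the vehicle mice, and they give only the treatment for the rFGF4 mice, while the study's text describes the sequenced mice as made diabetic with streptozotocin. The model is therefore given here as the labels have it, both groups were diabetic, and a non-diabetic group was not analysed here. The labels do not give the age, dose or duration for these mice. The sample titles number the libraries 1, 2, 3 and 5 for rFGF4 and 2, 3, 4 and 5 for vehicle. Each number is used here as a mouse number to name the library.

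NRF2, the product of *Nfe2l2*, is a transcription factor that turns on genes of the antioxidant and detoxifying response. In resting cells the adaptor KEAP1 holds it and hands it to a ubiquitin ligase for degradation. Oxidants and electrophiles modify KEAP1, NRF2 then builds up in the nucleus, pairs with a small MAF protein and binds antioxidant response elements near its target genes. Much of this control acts on the protein, which RNA-seq does not measure. In the kidney the pathway is known for its part in the response of tubules and glomeruli to oxidative stress, to which diabetes adds.

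The promoter windows of the pathway genes show where the core of that element, TGACNNNGC, can be read near their start sites. A window is the 300 bases from 250 before to 50 after a RefSeq start site on GRCm38.p6, and both strands were searched, so a match on the other strand reads GCNNNGTCA. No window was found for *Hmox1*, *Gclc* and *Gsr*, so these were not searched. A window was found for the other 7 of the 10 genes, and 4 of these held a match. The windows of those 4 are shown around the match in the gene's own direction, with the match in capitals, followed by those of *Mafg* and *Maff*, the small MAF partners whose RNA is described further on.
*Nfe2l2*: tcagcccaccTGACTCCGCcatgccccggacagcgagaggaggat
*Gclm*: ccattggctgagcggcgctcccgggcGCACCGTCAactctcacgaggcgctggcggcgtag
*Txnrd1*: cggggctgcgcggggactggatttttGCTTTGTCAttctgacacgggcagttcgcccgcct
*Srxn1*: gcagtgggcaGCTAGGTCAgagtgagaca
*Mafg*: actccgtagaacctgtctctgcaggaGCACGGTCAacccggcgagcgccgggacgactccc
*Maff*: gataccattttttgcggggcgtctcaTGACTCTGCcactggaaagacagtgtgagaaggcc
The stretches lie at chr2:75704869-75704913 on the minus strand for *Nfe2l2*, chr3:122245397-122245457 on the plus strand for *Gclm*, chr10:82859088-82859148 on the plus strand for *Txnrd1* and chr2:152105542-152105570 on the plus strand for *Srxn1*. Those of the partners lie at chr11:120633735-120633795 on the minus strand for *Mafg* and chr15:79346483-79346543 on the plus strand for *Maff*. The first base of the match was 240 bases before the start site in *Nfe2l2*, 134 before it in *Gclm*, 92 before it in *Txnrd1*, 222 before it in *Mafg* and 112 before it in *Maff*, while in *Srxn1* it was 28 bases after it. The *Txnrd1* match was in the window of a start site within the gene. The same letters were found in 12.4% of all 32851 windows and, since a gene can have several windows, in 14% of the 27025 genes with a window. A match is a run of letters and not a measured binding site.

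Of the 10 genes, 7 had a higher mean of log2(FPKM + 1) in rFGF4-treated kidneys, and 3 of them, *Txnrd1*, *Nfe2l2* and *Gsr*, did so at an unadjusted p under 0.05. FPKM is the number of fragments per length of exon, scaled to the number of mapped reads, so it allows levels to be compared between genes. None of the 10 was lower at that threshold. The test was limma's moderated test on log2(FPKM + 1), in which a difference understates the change of low genes. Over all tested genes 3.56% were higher and 1.06% lower at the same threshold, and 67.1% had a difference above 0. On the log2(FPKM + 1) scale none of the 10 met the study's threshold of p under 0.05 together with a fold change of at least 1.5, which 1.52% of all tested genes met. That count of 0 rests on the added 1, since *Txnrd1* met the threshold with 0.1 in its place. No gene passed an adjusted p of 0.05 (0% of those tested, Benjamini-Hochberg), where 539 genes were higher and 161 lower unadjusted, and the smallest adjusted p was 0.918 both for the 10 genes and for all genes. The median difference was 0.25 for the 10 genes and 0.09 for all tested genes. It was 0.12 and -0.01 with libraries at a common median ratio, 0.16 and 0.15 without vehicle mouse 5, and 0.44 and 0.13 without rFGF4 mouse 5. In *Txnrd1* alone all 4 rFGF4-treated libraries were above all 4 vehicle libraries, which held for 2.66% of all tested genes. After each library was scaled to a common median ratio, the split over all genes was 340 higher and 370 lower, 6 of the 10 genes had a difference above 0, and at p under 0.05 *Nfe2l2* was higher and *Keap1* lower, while *Txnrd1* and *Gsr* no longer passed. With weights for the libraries *Gclc* joined *Txnrd1*, *Nfe2l2* and *Gsr*, a total of 4, in a setting in which 12% of all tested genes were at p under 0.05, against 4.62% without weights. In tissue of mixed cell types, fewer cells of a type and less RNA per cell cannot be told apart.

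**Figure D1:**
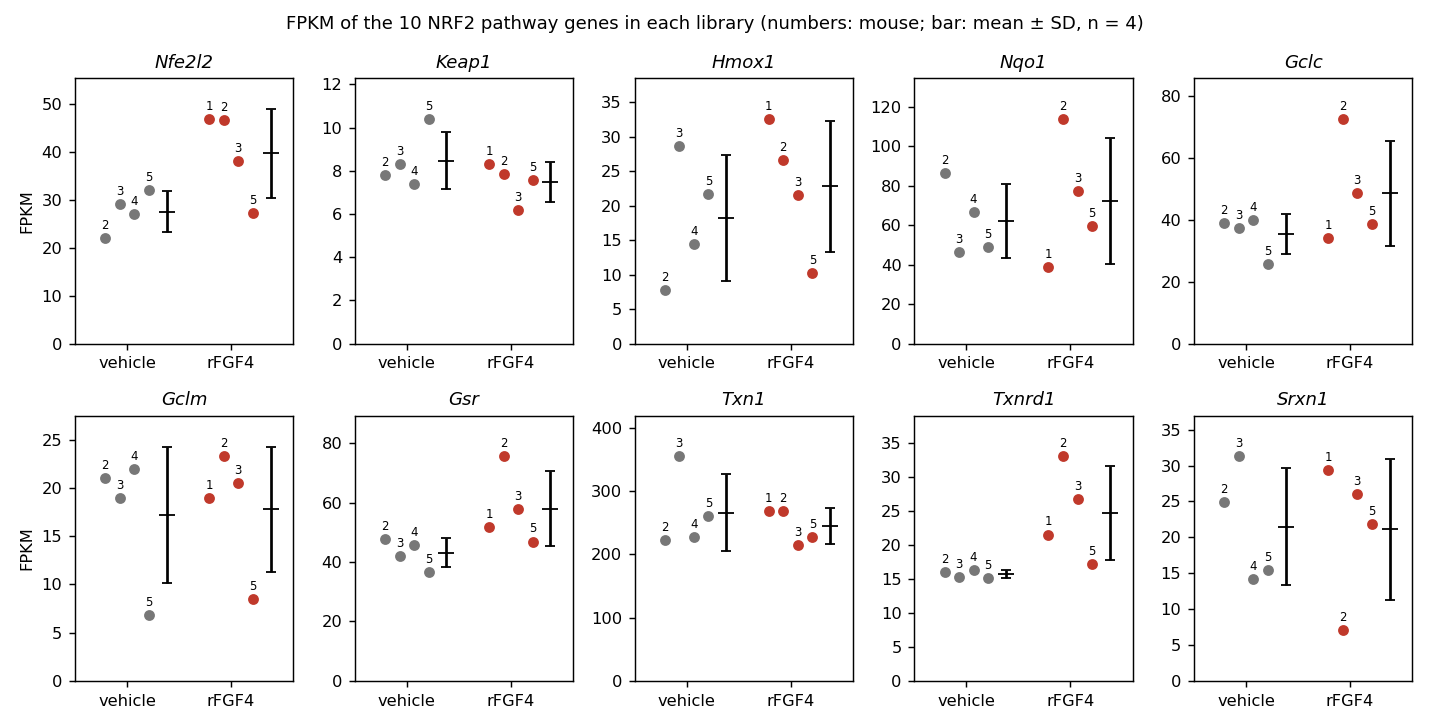
FPKM (vertical axes, from 0) of each of the 10 genes in the 4 vehicle (grey) and 4 rFGF4-treated (red) libraries, numbered by mouse, with the mean ± SD at the right of each group. *Txnrd1* is the gene without overlap, with vehicle values of 15.1 to 16.3 FPKM and rFGF4 values of 17.1 to 33 FPKM.

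The libraries differed in their make-up. The FPKM of all genes summed to 389407 to 529835 in the rFGF4-treated libraries and to 481321 to 552604 in the vehicle libraries, and the number of reads behind a value is not known from FPKM. Markers of kidney cells were present in all 8 libraries. The sum of 8 proximal tubule markers was 455 to 1660 FPKM with rFGF4 and 1070 to 1860 FPKM with vehicle, the lowest being rFGF4 mouse 1, and 7 of the 8 had a difference below 0, none at p under 0.05. Of 6 distal nephron markers 5 had a difference below 0 (median -0.38), none at p under 0.05, and their sum was 1080 to 1730 FPKM with rFGF4 and 1090 to 1570 FPKM with vehicle. All 5 podocyte markers had a difference above 0 (median 0.30, *Synpo* alone at p under 0.05), with a sum of 66.1 to 96.7 FPKM with rFGF4 and 46.9 to 86.7 FPKM with vehicle. All 5 endothelial markers had a difference below 0, none at p under 0.05, with a sum of 21.9 to 33.7 FPKM with rFGF4 and 27.8 to 41.8 FPKM with vehicle. The sum of 8 macrophage markers reached 1320 FPKM in rFGF4 mouse 1 and 1840 FPKM in vehicle mouse 5, against 48.8 to 479 FPKM in the other libraries, and 8 of its 8 genes had a difference above 0, none at p under 0.05. The immunoglobulin light chain *Igkc* was at 22300 FPKM in vehicle mouse 5 and at 22.4 to 2640 FPKM elsewhere. Limma's weights were lowest for the same libraries, at 0.27 for rFGF4 mouse 1 and 0.41 for vehicle mouse 5. Of 5 hepatocyte markers 3 had a difference above 0, of which *Serpina1a* met the study's threshold, with sums of 404 to 814 FPKM with rFGF4 and 378 to 561 FPKM with vehicle. The part of these differences in the results was not tested.

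*Nfe2l2* (ENSMUSG00000015839, chr2:75675513-75704641 on the minus strand of GRCm38) encodes NRF2 itself. Its FPKM was 46.8, 46.6, 38 and 27.1 in rFGF4 mice 1, 2, 3 and 5 and 22, 29, 26.9 and 32 in vehicle mice 2, 3, 4 and 5. Of the rFGF4-treated kidneys, 3 were above every vehicle kidney and the remaining one, mouse 5, was within the vehicle range. The means were 39.6 ± 9.31 FPKM with rFGF4 and 27.5 ± 4.18 FPKM with vehicle (SD, n = 4 each). The difference in log2(FPKM + 1) was 0.49 ± 0.20 (SE), with a 95% interval of 0.04 to 0.95. The unadjusted p was 0.0373 and the adjusted p 0.918 by limma, and the two-sided exact permutation p was 0.0857. Leaving out 1 library at a time kept the difference between 0.39 and 0.66, but only without rFGF4 mouse 5 or without vehicle mouse 5 did the unadjusted p remain under 0.05.

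*Keap1* (ENSMUSG00000003308, chr9:21229730-21239361, minus strand), the adaptor that marks NRF2 for degradation, was the lowest of the 10 genes. Its FPKM was 8.3, 7.87, 6.19 and 7.58 with rFGF4 and 7.82, 8.3, 7.4 and 10.4 with vehicle, in the same order of mice. The groups overlapped, with the highest value in vehicle mouse 5 and the lowest in rFGF4 mouse 3. The difference was -0.16 ± 0.14 (SE) on the log2(FPKM + 1) scale with a 95% interval of -0.48 to 0.17, an adjusted p of 0.921 by limma and an exact permutation p of 0.4. With the libraries scaled to a common median ratio the difference was -0.27 at an unadjusted p of 0.0267, and without vehicle mouse 5 it was -0.06. An exon of the antisense gene *Gm16754* overlaps *Keap1*, and since the sources used here do not state that the counting used strand, reads from this overlap cannot be told apart.

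*Hmox1* and *Nqo1* are classical NRF2 targets that remove heme and quinones, and neither differed at an unadjusted p under 0.05. *Hmox1* (ENSMUSG00000005413, chr8:75093621-75100589, plus strand) encodes heme oxygenase 1, which splits heme into biliverdin, iron and carbon monoxide. Its FPKM was 32.6, 26.7, 21.6 and 10.2 with rFGF4 and 7.72, 28.7, 14.4 and 21.7 with vehicle. Both groups covered nearly the same range, and vehicle mouse 2 was the lowest of all. The means were 22.8 ± 9.52 and 18.2 ± 9.09 FPKM (SD, n = 4 each), and the difference was 0.34 ± 0.45 (SE), with a 95% interval of -0.68 to 1.37 and an exact permutation p of 0.543. It was 0.01 without vehicle mouse 2 and 0.67 without rFGF4 mouse 5. Transcripts of red blood cells, which carry the heme that *Hmox1* handles, varied as well: 5 markers summed to 120 to 2660 FPKM with rFGF4 and to 1140 to 4330 FPKM with vehicle, and all 5 had a difference below 0, none at p under 0.05. *Hmox1* is also made by macrophages, whose markers were high in rFGF4 mouse 1 and vehicle mouse 5. The part of either cell type in the *Hmox1* values was not tested.

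*Nqo1* (ENSMUSG00000003849, chr8:107388225-107403206, minus strand) encodes an NAD(P)H quinone reductase. Its FPKM was 38.6, 114, 77.6 and 59.4 with rFGF4 and 86.6, 46.3, 66.9 and 49.1 with vehicle. The rFGF4 group held both the lowest value, in mouse 1, and the highest, in mouse 2. The means of 72.4 ± 32.1 and 62.2 ± 18.6 FPKM (SD, n = 4 each) differed by less than the spread within the groups. The log2 difference was 0.15 ± 0.34 (SE) with a 95% interval of -0.62 to 0.93 and an exact permutation p of 0.714, and it turned to -0.10 without rFGF4 mouse 2.

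Of the glutathione genes, *Gsr* was higher in rFGF4-treated kidneys at an unadjusted p under 0.05, and both subunits of the enzyme that starts glutathione synthesis were not. *Gclc* (ENSMUSG00000032350, chr9:77754535-77794485, plus strand) encodes the catalytic subunit of glutamate-cysteine ligase. Its FPKM was 34.2, 72.6, 48.5 and 38.7 with rFGF4 and 38.9, 37.2, 39.8 and 25.8 with vehicle. With rFGF4, mice 2 and 3 were above all vehicle mice while mice 1 and 5 were within the vehicle range, whose lowest value was in mouse 5. The difference was 0.40 ± 0.25 (SE) on the log2 scale with a 95% interval of -0.17 to 0.97, an adjusted p of 0.918 by limma and an exact permutation p of 0.257. It was 0.19 without rFGF4 mouse 2, and 0.51 with an unadjusted p of 0.0427 when the libraries were weighted.

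*Gclm* (ENSMUSG00000028124, chr3:122245557-122270732, plus strand) encodes the modifier subunit of the same enzyme, and its promoter window holds one of the matches shown above. Its FPKM was 19, 23.3, 20.5 and 8.48 with rFGF4 and 21, 19, 22 and 6.8 with vehicle. In each group mouse 5 was far below the other mice, which lay close together. The difference of 0.08 ± 0.42 (SE), with a 95% interval of -0.87 to 1.04, had an exact permutation p of 0.714 and was below 0 after scaling to a common median ratio (-0.05) or with weights for the libraries (-0.08). Exons of *Gclm* overlap those of the processed pseudogene *Gm6061* on the same strand and of *Gm17494* on the other, so its level is uncertain where the authors' counting could have split reads.

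*Gsr* (ENSMUSG00000031584, chr8:33652523-33698163, plus strand) encodes glutathione reductase, which returns oxidised glutathione to its reduced form with NADPH. Its FPKM was 51.8, 75.6, 57.9 and 46.9 with rFGF4 and 47.9, 42, 45.7 and 36.6 with vehicle. Only rFGF4 mouse 5 overlapped the vehicle range, just under vehicle mouse 2. The means were 58 ± 12.6 and 43.1 ± 4.92 FPKM (SD, n = 4 each), and the difference in log2(FPKM + 1) was 0.41 ± 0.17 (SE) with a 95% interval of 0.02 to 0.79. The unadjusted p was 0.0404 and the adjusted p 0.918 by limma, and the exact permutation p was 0.0571. The unadjusted p stayed under 0.05 without rFGF4 mouse 1, rFGF4 mouse 5 or vehicle mouse 2 and was 0.0573 to 0.105 without any of the other 5 libraries. With the libraries brought to a common median ratio, the difference was 0.28 with an unadjusted p of 0.229.

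The thioredoxin system passes electrons from NADPH through thioredoxin reductase to thioredoxin, which reduces disulfides in other proteins. *Txnrd1* (ENSMUSG00000020250, chr10:82833951-82897712, plus strand), the cytosolic thioredoxin reductase, had the largest difference of the 10 genes. Its FPKM was 21.5, 33, 26.7 and 17.1 with rFGF4 and 16, 15.2, 16.3 and 15.1 with vehicle. The vehicle kidneys lay close together and below every rFGF4-treated kidney, of which mouse 5 was nearest to them. The means were 24.6 ± 6.9 and 15.7 ± 0.611 FPKM (SD, n = 4 each). The difference in log2(FPKM + 1) was 0.58 ± 0.19 (SE), with a 95% interval of 0.15 to 1.01, which is a fold of 1.49. The ratio of mean FPKM, in which nothing is added, was 1.57, and the difference in log2(FPKM + 0.1) was 0.60, so that *Txnrd1* lay on either side of the study's 1.5 by the scale used. The unadjusted p was 0.015 and the adjusted p 0.918 by limma, and the exact permutation p of 0.0286 was the smallest that 4 mice against 4 allow. Leaving out any 1 library kept the difference between 0.43 and 0.73 and the unadjusted p under 0.05. With the libraries brought to a common median ratio, the difference was 0.46 with an unadjusted p of 0.0648.

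*Txn1* (ENSMUSG00000028367, chr4:57943373-57956411, minus strand) encodes thioredoxin, the substrate of that reductase, and was the most abundant of the 10 transcripts. Its FPKM was 269, 268, 214 and 228 with rFGF4 and 223, 355, 227 and 261 with vehicle. The rFGF4 values all lay below the highest vehicle value, in mouse 3, and the groups overlapped. The difference was -0.10 ± 0.18 (SE) on the log2 scale with a 95% interval of -0.52 to 0.32 and an exact permutation p of 0.629, and it was 0.04 without vehicle mouse 3.

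*Srxn1* (ENSMUSG00000032802, chr2:152105516-152111376, plus strand) encodes sulfiredoxin, which repairs over-oxidised peroxiredoxins, the enzymes that spend thioredoxin's electrons on peroxides. Its FPKM was 29.4, 7.14, 26 and 21.9 with rFGF4 and 24.9, 31.3, 14.2 and 15.4 with vehicle. The value of rFGF4 mouse 2 was the lowest of all 8, in the library in which 5 of the other genes were highest. The difference was -0.11 ± 0.44 (SE) with a 95% interval of -1.12 to 0.89 and an unadjusted p of 0.801 by limma. Without rFGF4 mouse 2 it was 0.31 at an unadjusted limma p of 0.312.

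**Figure D2:**
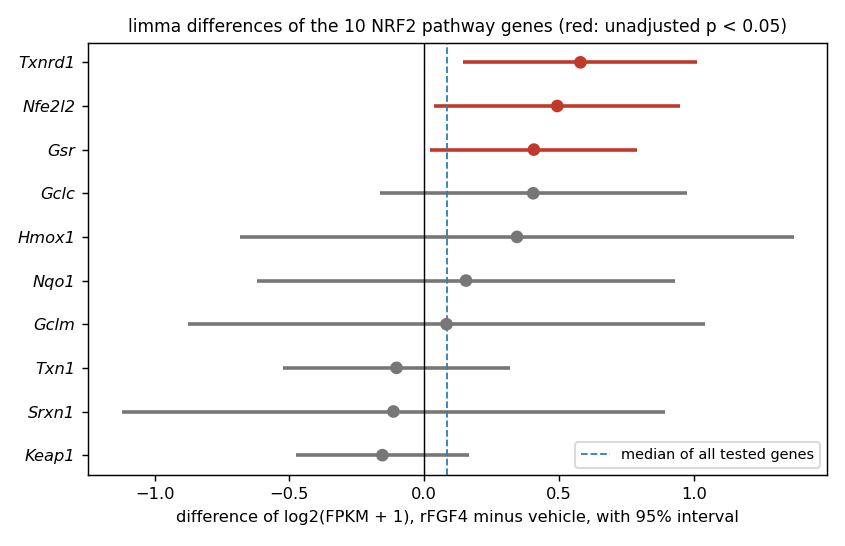
Difference in mean log2(FPKM + 1), rFGF4 minus vehicle, of each of the 10 genes (points) with its 95% interval from limma (bars), in red where the unadjusted p was under 0.05, beside the median of all tested genes (dashed line, 0.09). The intervals of *Txnrd1*, *Nfe2l2* and *Gsr* lie above 0 and those of the other genes include 0.

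How far the calls for *Txnrd1*, *Nfe2l2* and *Gsr* rest on single kidneys and on the scaling is plotted for every setting. Their differences stayed above 0 throughout, at 0.43 to 0.73, 0.37 to 0.66 and 0.27 to 0.50 on the log2 scale.

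**Figure D3:**
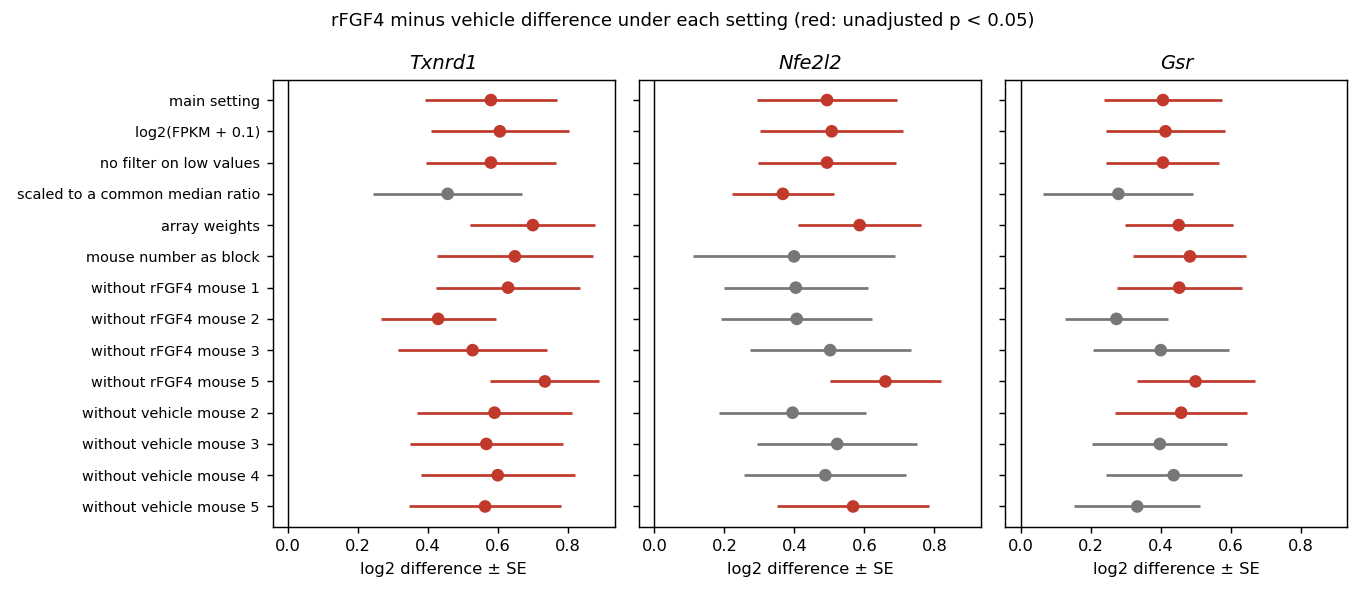
Difference in log2 expression ± SE (horizontal axes) of *Txnrd1*, *Nfe2l2* and *Gsr* under the reported setting and each of 13 alternatives, in red where the unadjusted p was under 0.05. All differences lie above 0, and *Txnrd1* is red under 12 of the 13 alternatives, *Nfe2l2* under 6 and *Gsr* under 7.

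The levels of the 10 transcripts kept much the same order in both groups. By mean FPKM, *Txn1* was first, followed by *Nqo1*, *Gsr*, *Gclc* and *Nfe2l2*, and *Keap1* was last in both. Between *Nfe2l2* and *Keap1*, the order was *Txnrd1*, *Hmox1*, *Srxn1* and *Gclm* with rFGF4 and *Srxn1*, *Hmox1*, *Gclm* and *Txnrd1* with vehicle. In each group the ranges over the 4 mice overlapped for 7 of the 9 pairs of neighbours in that order. The pairs that did not overlap were *Txn1* above *Nqo1*, with means of 245 and 72.4 FPKM with rFGF4 and 266 and 62.2 FPKM with vehicle, and *Keap1* below its neighbour, with means of 7.49 and 8.47 FPKM. *Txnrd1* was thus 6th with rFGF4 and 9th with vehicle, but its range overlapped that of its neighbours above it in each group.

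The 10 genes did not move as one across the kidneys. Over all 8 libraries the 45 pairs of genes had a median Pearson r of 0.12 on the log2 scale, from -0.62 for *Nqo1* and *Srxn1* to 0.94 for *Gsr* and *Txnrd1*, and 20 pairs were below 0. The r was at least 0.8 in 4 pairs: *Gsr* with *Txnrd1*, *Gsr* with *Gclc* (0.93), *Txnrd1* with *Gclc* (0.83) and *Nfe2l2* with *Hmox1* (0.81). *Nfe2l2* itself had an r of 0.79 with *Txnrd1*, 0.61 with *Gsr*, 0.39 with *Gclc*, 0.20 with *Gclm* and -0.02 with *Nqo1*. These are descriptions of 8 points, which include the difference between the groups and share each library's make-up. Of the 10 highest values, 5 were in rFGF4 mouse 2, and of the 10 lowest, 4 were in vehicle mouse 5. In rFGF4 mouse 2, *Nqo1*, *Gclc*, *Gclm*, *Gsr* and *Txnrd1* were at their highest of all 8 libraries and *Srxn1* at its lowest, and in vehicle mouse 5, *Gclc*, *Gclm*, *Gsr* and *Txnrd1* were at their lowest and *Keap1* at its highest. rFGF4 mouse 1 had the highest *Nfe2l2* and *Hmox1* together with the lowest *Nqo1*.

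**Figure D4:**
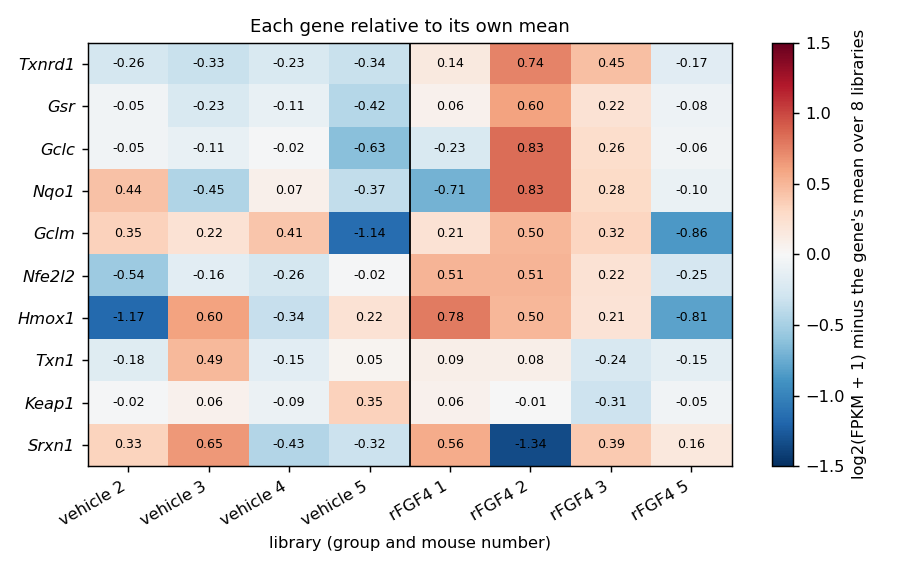
log2(FPKM + 1) of each of the 10 genes (rows) in each library (columns, group and mouse number) minus the gene's mean over the 8 libraries, printed in each cell, with blue below and red above 0. *Txnrd1*, *Gsr*, *Gclc*, *Nqo1* and *Gclm* are red in rFGF4 mouse 2, where *Srxn1* is the deepest blue (-1.34).

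Among all tested genes outside the 10, those whose values followed *Nfe2l2* most closely over the 8 libraries were *Trib2* (Pearson r = 0.99, Spearman rho = 0.98), *Cmas* (0.99 and 0.95, in the same order) and *Slx4* (0.98 and 0.95). *Trib2* encodes a pseudokinase, *Cmas* the enzyme that activates sialic acid and *Slx4* a scaffold of DNA repair nucleases. *Trib2* was at 7.11 to 12.9 FPKM with rFGF4 and 5.5 to 8.18 FPKM with vehicle. With 15150 genes searched over 8 points, such values are a description only.

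The wider pathway was described by 47 other genes in 6 lists, of which 44 passed the filter. These lists were chosen with earlier results of these data known, so their counts are descriptions only. Of the 44, 34 (77.3%) had a difference above 0 and 10 below 0, against 67.1% above 0 over all tested genes. Of the same 44, 6 were higher at an unadjusted p under 0.05 and none was lower, and their median difference was 0.16, against 3.56% higher and a median of 0.09 over all tested genes. The study's threshold was met by 3 of the 44 (*Maff*, *Txnip* and *Txnrd3*) and by 1.52% of all tested genes. None passed after adjustment over all genes, the smallest adjusted p being 0.918 by limma. *Slc7a11*, the cystine transporter, *Gpx2* and *Aox1* were below the filter, and *Slc7a11* was at 0.0241 to 0.419 FPKM in the 8 libraries. RefSeq windows were found for 42 of the 47 genes. Of these, 12 (28.6%) held the core of the antioxidant response element, against 14% of all genes with a window.

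Of the 6 genes, 3 were among the 10 partners and regulators of NRF2, of which 9 (90%) had a difference above 0, against 67.1% of all tested genes. The list also holds genes that act against NRF2, such as *Bach1*, *Cul3*, *Gsk3b* and *Btrc*, whose differences were above 0 too. The share therefore has no single direction for the pathway. *Maff*, a small MAF protein, had the largest difference of the 44 genes, and its FPKM was 15.3, 7.38, 5.83 and 1.36 with rFGF4 and 0.961, 0.806, 0.916 and 1.11 with vehicle. The groups did not overlap, and rFGF4 mouse 5 was nearest to the vehicle mice. The difference was 1.82 ± 0.50 (SE) with an unadjusted p of 0.00639 by limma and an exact permutation p of 0.0286, and it was 1.40 to 2.33 with 1 library left out. *Mafg*, another small MAF protein, was at 26.5, 23.8, 23.3 and 16.7 FPKM with rFGF4 and 13.5, 16.2, 15.4 and 17.2 FPKM with vehicle, so that only rFGF4 mouse 5 overlapped the vehicle mice. Its difference was 0.50 ± 0.16 (SE), with an unadjusted limma p of 0.013 and an exact permutation p of 0.0571. Exons of *Mafg* overlap those of *Sirt7* on the same strand. *Sqstm1* encodes p62, an autophagy receptor that also binds KEAP1, and was at 124 to 159 FPKM with rFGF4 and 102 to 124 FPKM with vehicle. Its difference was 0.34 ± 0.13 (SE), with an unadjusted limma p of 0.0279 and an exact permutation p of 0.0286. It was 0.21 with an unadjusted p of 0.178 under the common median ratio, and it passed p under 0.05 in 4 of the 8 fits with 1 library left out.

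In the thioredoxin system outside the 10 genes, 2 of 7 genes were higher at an unadjusted p under 0.05, where 3.56% of all tested genes were. *Txnip* encodes a protein that binds and inhibits thioredoxin and is known to be induced by glucose. Its FPKM was 230, 237, 179 and 154 with rFGF4 and 101, 112, 101 and 147 with vehicle, with no overlap. The difference was 0.79 ± 0.19 (SE), with an unadjusted limma p of 0.00329 and an exact permutation p of 0.0286, and an exon of the antisense gene *Gm15441* overlaps *Txnip*. *Txnrd3*, a thioredoxin glutathione reductase, was at 15.8, 12.4, 14.3 and 7.05 FPKM with rFGF4 and 8.77, 5.35, 6.57 and 7.04 FPKM with vehicle. Its difference was 0.72 ± 0.25 (SE), with an unadjusted limma p of 0.0183 and an exact permutation p of 0.0571. The unadjusted p was 0.0505 without rFGF4 mouse 3 and 0.0519 without vehicle mouse 3. The other 5 genes of this list, which include the peroxiredoxins *Prdx1* and *Prdx6*, had differences of -0.02 to 0.09.

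The remaining lists, with 9, 6, 5 and 7 tested genes, held 1 further gene at an unadjusted p under 0.05, a share near the 3.56% of all tested genes that were higher. Of the 9 tested genes of glutathione supply, conjugation and export, 8 had a difference above 0, and *Abcc4*, an exporter of organic anions, was at 17.1 to 29.6 FPKM with rFGF4 and 11 to 19 FPKM with vehicle, a difference of 0.50 ± 0.21 (SE) with an unadjusted limma p of 0.0459 and an exact permutation p of 0.0857. The *Abcc4* difference passed p under 0.05 in 5 of 13 alternatives, only without rFGF4 mouse 5 or vehicle mouse 5 among the 8 fits with 1 library left out, and had an unadjusted p of 0.104 after scaling. Of the 6 genes of NADPH supply 5 were above 0, with a list median of 0.20 and a smallest p of 0.112. Of the 5 genes of heme and iron 3 (60%) were above 0, and of the 7 tested genes of xenobiotic metabolism 4 (57.1%) were, both shares below the 67.1% of all tested genes. The lowest p among genes with a difference below 0 belonged to *Ephx1*, a microsomal epoxide hydrolase (-0.36, unadjusted limma p of 0.15), *Nqo2*, a quinone reductase (-0.15, p of 0.18), and *Ftl1*, the ferritin light chain (-0.11, p of 0.629). For *Ephx1* the difference was -0.57 with an unadjusted p of 0.011 without rFGF4 mouse 5, and -0.18 without rFGF4 mouse 3.

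**Figure D5:**
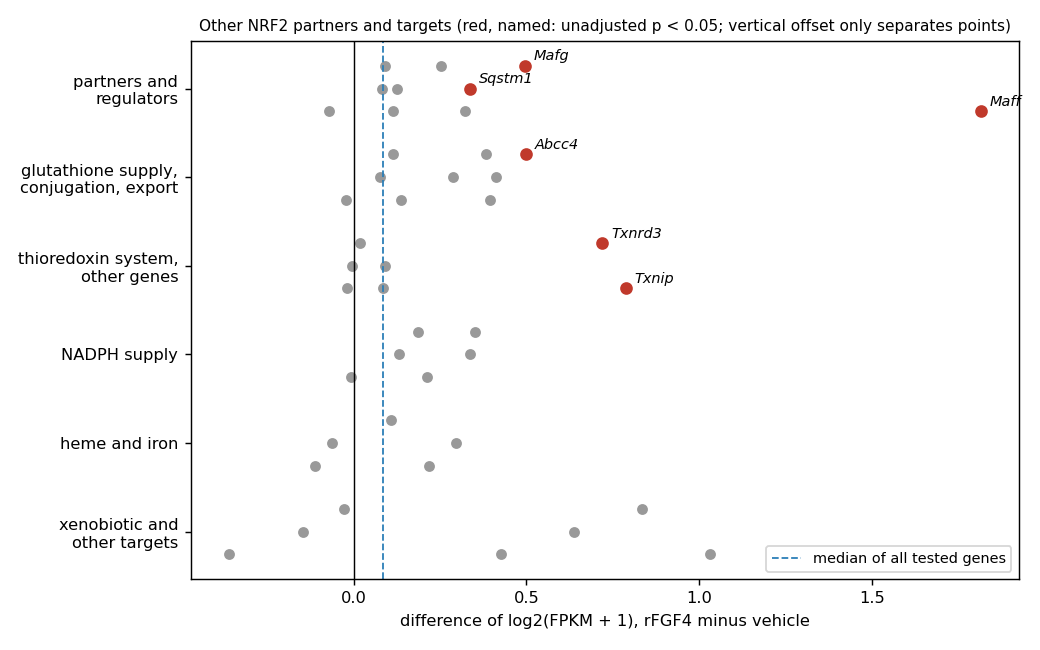
Difference in mean log2(FPKM + 1), rFGF4 minus vehicle (horizontal axis), of the 44 other tested genes of the pathway by list, with genes at an unadjusted p under 0.05 in red and named, beside the median of all tested genes (dashed line). The 6 red genes all lie to the right of 0, with *Maff* farthest at 1.82.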

How the data were processed

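Poly(A) RNA of 8 kidneys was sequenced as paired ends. Per the study's methods, transcripts were assembled per library with StringTie and combined with gffcompare, and the authors deposited 1 table of FPKM per gene, with 0.0001 in place of 0. The submitters' processing notes name HISAT2 2.0, StringTie 1.3.0, Bowtie 0.12.2 and build mm8, without roles. The table also holds the authors' edgeR fold changes, p-values and q-values, which were not used. It holds no counts, so depth and counting error are unknown. An indirect estimate of relative depth, from the most common ratio of very low FPKM values to those of vehicle mouse 2, lay between 0.904 and 1.12.

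The filter kept genes that reached 0.5 FPKM in 4 of the 8 libraries. They were compared as log2(FPKM + 1) with limma 3.58.1 in R 4.3.3 (variance trend, Benjamini-Hochberg adjustment over all 15150 genes), and this fit was tested on simulated data. For single genes a two-sided exact permutation test over all 70 assignments was added. Positions came from GENCODE M21 (GRCm38), which held 99.5% of the identifiers, and promoter windows from RefSeq (GRCm38.p6). Samples were grouped by genotype and treatment labels. The genes, lists and tests were chosen with earlier results of these data known. Named were all 10 genes, listed pathway genes at p under 0.05, the 3 in each direction with the smallest p, the 3 genes most like *Nfe2l2*, and cell type lists. Alternatives were another pseudocount, no filter, another scaling, weights for libraries, a replicate block and leaving out each library. The block compares only mice whose numbers occur in both groups.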

Additional observations from a re-analysis of the deposited data

Results flagged for a closer look

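Values were examined for a library far from the other 3 of its group, by the gap to its nearest neighbour as a share of the group's range on the log2(FPKM + 1) scale. Of 54 groups of 4 libraries, 4 were past the 95% limit of Dixon's test, where chance gives about 2.7 (1 in 20). *Gclc* in vehicle mouse 5 (25.8 FPKM against 37.2 to 39.8 FPKM) had a share of 0.848, and *Gclm* in the same mouse (6.8 FPKM against 19 to 22 FPKM) had a share of 0.872. Both subunits of glutamate-cysteine ligase were thus low in the library with the highest *Igkc*, and without it their log2 differences were 0.26 for *Gclc* and -0.29 for *Gclm*. *Ephx1* in vehicle mouse 3 (65.3 FPKM against 52.5 to 53.8 FPKM) had a share of 0.888. The sum of the distal nephron markers in rFGF4 mouse 1 (1080 FPKM against 1630 to 1730 FPKM) had a share of 0.874. On FPKM itself, a scale added after seeing the data, the shares were 0.819 for *Gclc* and 0.805 for *Gclm*, both under the limit, and 0.898 for *Ephx1* and 0.846 for the distal nephron sum.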

How the results depend on the processing

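The difference of *Txnrd1* was above 0 under all 13 alternatives and at an unadjusted p under 0.05 under 12, the exception being scaling to a common median ratio. Of the 10 genes, 3 were at p under 0.05, and leaving out 1 library gave 1 to 3, the count of 1 arising when mouse 2 or 3 of the rFGF4 group or mouse 3 or 4 of the vehicle group was left out. Under the study's threshold the count of 0 became 1 with log2(FPKM + 0.1), 2 with weights for the libraries and 0 to 2 with 1 library left out (1 without rFGF4 mouse 1, vehicle mouse 2 or vehicle mouse 4, and 2 without rFGF4 mouse 5). Over all tested genes 1.52% met that threshold, 2.3% with log2(FPKM + 0.1), 3.23% with weights, 1.33% to 1.45% where leaving out a library gave 1, and 3.8% without rFGF4 mouse 5. The 6 other pathway genes at p under 0.05 became 11 with weights and 3 to 11 with 1 library left out, 3 without rFGF4 mouse 3 and 11 without rFGF4 mouse 5. The share of all tested genes at p under 0.05 was 4.62%, and it was 12% with weights, 9.44% without rFGF4 mouse 5 and 3.32% without rFGF4 mouse 3. Scaling left 2 of the 10 genes at p under 0.05 (*Nfe2l2* and, lower, *Keap1*), and weights gave 4. Directions turned for *Gclm* after scaling (-0.045) and with weights (-0.081). With 1 library left out, the range included 0 for *Gclm* (-0.29 to 0.38), *Nqo1* (-0.10 to 0.42), *Srxn1* (-0.32 to 0.31), *Txn1* (-0.18 to 0.043) and *Ftl1* (-0.20 to 0.055). No adjusted p of the 10 genes was under 0.05 in any setting, the lowest being 0.379. The cause of these changes was not tested.

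Mouse numbers 2, 3 and 5 occur in both groups. The deviations of same-numbered mice correlated at -0.23, -0.16 and -0.39, and 0 of 3 matched best with their own number. With 3 shared numbers this cannot decide whether the mice were paired, and the main fit treats them as unpaired. A replicate block takes rFGF4 mouse 1 and vehicle mouse 4 out of the group difference, since their numbers occur in a single group. That fit thus compares the 3 same-numbered pairs only. In it, 3 of the 10 genes were at p under 0.05 (*Gclc*, *Txnrd1* and *Gsr*), and 2 met the study's threshold (1.73% of all tested genes). Of the other pathway genes 2 were at p under 0.05, while over all genes 394 were, against 700 without the block. FPKM without counts limits all values: how far a low value is from counting error cannot be given.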
